A study of Mus musculus with 9 samples.

Results

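Interactions between 2 promoters were taken from H3K27ac MNase HiChIP of mouse embryonic stem cells. A member is a listed H3K27ac interaction whose 2 bins, each 2 kb long, both contain the start of a protein-coding transcript (mm10, GENCODE M21) and lie less than 300 kb apart. The untreated list held 4271 members among 36274 interactions, 11.8% of the list. The list from cells given IAA held 3432 among 28210, or 12.2%. Over both lists there were 5520 distinct members of 48933 distinct interactions: 2183 stood in both lists at the same bin pair, 2088 in the untreated list only and 1249 in the IAA list only. The members touched 4670 promoter bins and 4943 protein-coding genes in untreated cells, and 4079 bins and 4353 genes after IAA.

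All cells were of the E14 line, carried the genotype CTCF AID and grew without serum in medium with LIF, PD0325901 and CHIR99021. The 4 groups were H3K27ac HiChIP without IAA (2 libraries), H3K27ac HiChIP after 12 h of IAA (2 libraries), and CTCF (2 libraries) and RAD21 (3 libraries) HiChIP without IAA. IAA is an auxin, which triggers degradation of a protein fused to an auxin-inducible degron (AID). The degron genotype is shared by all groups, no untagged cells were analysed here, and the CTCF protein level was not analysed here. Each group was deposited as 1 list pooled over its libraries, so spread between libraries could not be measured, and comparisons are between 2 pooled lists.

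In HiChIP, chromatin is cut (here with MNase), ends that lie close together in the nucleus are ligated, and fragments carrying a chosen protein or mark are pulled down before sequencing. H3K27ac marks active promoters and enhancers, so the assay sees contacts of active promoters best, and a contact count depends on the mark at its anchors as well as on proximity. CTCF is a zinc-finger protein that stops cohesin as it extrudes DNA, most efficiently at motifs that face each other, and RAD21 is a cohesin subunit. Promoters of active genes also meet one another in clusters that are known from many cell types, including clusters of housekeeping genes.

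The promoters below belong to 5 tandem pairs, in which both genes are read in the same direction. They were chosen to show pairs that the results return to. These include a short pair with 86 and 87 contacts in the untreated and IAA lists, a short pair on a CTCF and RAD21 interaction, and a short pair missing after IAA. Also shown are the longest pair of different genes kept in both lists with 20 or more contacts, and a pair of zinc-finger genes with similar promoters. Each line is the 100 bases before the RefSeq transcript start (GRCm38.p6), 5′ to 3′ on the gene's strand. Capitals mark the motif letters found on either strand by exact match: CCAAT, the GC box GGGCGG, the ETS motif CCGGAAG, the E-box CACGTG and the CRE TGACGTCA. Anapc15, a subunit of the anaphase-promoting complex (chr7:101896231-101896330, plus strand, in an intron of another Anapc15 transcript), and Lamtor1, a lysosomal Ragulator subunit (chr7:101905737-101905836, plus strand, in an intron of Tomt), shared 86 untreated contacts.
Anapc15: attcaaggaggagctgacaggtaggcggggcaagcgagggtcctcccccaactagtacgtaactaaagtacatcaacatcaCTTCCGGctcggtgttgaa
Lamtor1: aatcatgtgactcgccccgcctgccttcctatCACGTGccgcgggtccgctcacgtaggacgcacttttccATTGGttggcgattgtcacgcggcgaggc
Thap11, a zinc-finger factor of stem cells also called Ronin (chr8:105855003-105855102, plus strand, outside annotated genes), and Nutf2, which carries Ran into the nucleus (chr8:105860433-105860532, plus strand, outside annotated genes), lay on a CTCF and RAD21 interaction.
Thap11: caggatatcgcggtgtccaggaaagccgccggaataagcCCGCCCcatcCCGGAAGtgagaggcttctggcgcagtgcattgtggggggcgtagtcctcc
Nutf2: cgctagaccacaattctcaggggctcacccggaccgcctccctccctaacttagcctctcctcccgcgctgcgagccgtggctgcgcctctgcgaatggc
Mpdu1, needed for the use of dolichol-linked mannose (chr11:69662650-69662749, minus strand, outside annotated genes), and Eif4a1, the RNA helicase of translation initiation (chr11:69672424-69672523, minus strand, outside annotated genes), were a member in untreated cells only.
Mpdu1: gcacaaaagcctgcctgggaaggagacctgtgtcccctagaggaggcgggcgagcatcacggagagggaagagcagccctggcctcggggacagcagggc
Eif4a1: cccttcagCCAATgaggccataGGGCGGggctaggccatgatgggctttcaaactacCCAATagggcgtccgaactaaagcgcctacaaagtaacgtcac
Phf8, a histone demethylase (chrX:151520572-151520671, plus strand, outside annotated genes), and Huwe1, a ubiquitin ligase (chrX:151803182-151803281, plus strand, in an intron of another Huwe1 transcript), were 282 kb apart.
Phf8: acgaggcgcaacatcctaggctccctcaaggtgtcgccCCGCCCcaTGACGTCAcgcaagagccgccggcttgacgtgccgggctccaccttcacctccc
Huwe1: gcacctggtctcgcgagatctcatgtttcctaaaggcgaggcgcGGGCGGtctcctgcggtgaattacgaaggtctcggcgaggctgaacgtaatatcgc
Zfp874a (chr13:67451625-67451724, minus strand, in an exon of Gm38307) and Zfp874b (chr13:67484254-67484353, minus strand, in an intron of another Zfp874b transcript) were 34 kb apart.
Zfp874a: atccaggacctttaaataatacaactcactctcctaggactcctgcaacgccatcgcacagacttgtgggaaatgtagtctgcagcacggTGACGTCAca
Zfp874b: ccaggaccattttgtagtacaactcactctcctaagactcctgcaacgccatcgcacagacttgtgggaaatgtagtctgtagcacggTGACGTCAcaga
Shifted by 2 bases, 83 of 90 compared bases of the Zfp874a and Zfp874b promoters were the same (92.2%), with a common run of 45 bases. In the other 4 pairs the best shift gave 31.1% to 43.3% identity and the longest common run was 8 or 9 bases, so only the Zfp874 promoters resembled each other. Beyond their promoters the Zfp874 genes were not compared. Reads from near-identical sequences can be assigned to the wrong copy, and how multiply mapping reads were handled is not given in the sources used. Histone genes and the metallothionein genes Mt1 and Mt2, whose sequences were not compared here, may be affected too.

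The next sequences are windows around the CTCF core motif in 6 member pairs that were also CTCF and RAD21 interactions. They were chosen after their values were seen, as the 3 pairs with facing cores and the 3 without that had most untreated contacts. Only pairs with the core on 1 strand only at each end were taken. Pairs within a gene, all pairs on a single chromosome that was set aside, and pairs without a core window clear of annotated untranslated regions were left out. Stronger pairs may therefore be missing here. Capitals mark the core, 14 letters with at most 1 mismatch, read on the strand where it matched in the GRCm38 genome, with 13 bases on each side. In the first 3 pairs the cores face each other, plus strand on the left and minus strand on the right. These are Mrps14 and Cacybp (cores at chr1:160194961-160194974, plus, and chr1:160213311-160213324, minus), Cep85 and Pdik1l (chr4:134187340-134187353, plus, and chr4:134287584-134287597, minus), and H13 and Bcl2l1 (chr2:152669390-152669403, plus, and chr2:152830706-152830719, minus).
Mrps14: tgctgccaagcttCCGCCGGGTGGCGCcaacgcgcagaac
Cacybp: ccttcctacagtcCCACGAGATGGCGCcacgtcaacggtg
Cep85: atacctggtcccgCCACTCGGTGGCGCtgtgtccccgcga
Pdik1l: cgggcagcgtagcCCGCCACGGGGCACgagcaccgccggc
H13: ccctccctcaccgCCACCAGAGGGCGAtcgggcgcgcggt
Bcl2l1: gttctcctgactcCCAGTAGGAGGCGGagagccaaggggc
In the other 3 pairs they do not. These are Eif2s3x and Klhl15 (chrX:94213757-94213770, minus, and chrX:94234662-94234675, plus), N4bp2l2 and Pds5b (chr5:150665767-150665780, minus, and chr5:150673693-150673706, plus), and 4833439L19Rik and Faf2 (chr13:54565769-54565782, minus, and chr13:54621672-54621685, minus).
Eif2s3x: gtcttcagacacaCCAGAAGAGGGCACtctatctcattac
Klhl15: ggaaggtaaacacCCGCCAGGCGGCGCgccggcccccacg
N4bp2l2: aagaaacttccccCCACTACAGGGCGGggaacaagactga
Pds5b: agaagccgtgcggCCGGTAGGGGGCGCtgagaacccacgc
4833439L19Rik: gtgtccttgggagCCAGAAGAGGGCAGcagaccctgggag
Faf2: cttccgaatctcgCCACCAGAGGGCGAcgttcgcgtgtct

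The strongest members joined promoters 6 to 28 kb apart. Among the 8 pairs of different genes with most untreated contacts, the first was Slbp with Tacc3 and Tmem129 (chr5:33652001-33660000), 6 kb apart, with 160 contacts untreated and 104 after IAA. Slbp binds the stem-loop of histone mRNAs, and Tacc3 acts on the mitotic spindle. Ywhag, a 14-3-3 protein, and Ssc4d followed with 121 and 76 contacts at 28 kb (chr5:135934001-135964000). Cox20, an assembly factor of cytochrome c oxidase, and the nuclear RNA-binding protein Hnrnpu had 118 and 103. The metallothionein genes Mt2 and Mt1 had 102 and 92. Anapc15 and Lamtor1 had 86 and 87. The other 3 were Rpl4 and Zwilch with Snapc5 (99 and 67), the Mediator subunit Med1 with the kinase Cdk12 (93 and 79), and Apex1 and Osgep with Pip4p1 (92 and 82). These 8 pairs were taken for their untreated counts, which favours a lower second count, so no direction is read from them. In all 8 pairs the authors' model, which uses coverage and distance, had predicted fewer than 20 untreated contacts: 18.9 for Slbp with Tacc3 and Tmem129 and 3.72 for Ywhag with Ssc4d.

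Members were longer than other H3K27ac interactions at nearly the same contact count. The median span was 40 kb in members, 26 kb where a start lay in one bin only (11675 untreated interactions under 300 kb) and 18 kb where it lay in neither (19619). Median contacts were 13, 13 and 14, and the median ratio of observed to predicted contacts was 6.22, 5.48 and 5.29. Both bins were peaks in 98.6% of members, against 86.9% and 81.0%, and the weaker anchor of a member had a median coverage of 2106 reads, against 1611 and 1537. No other protein-coding start lay between the bins in 48.6% of members, 1 to 4 genes lay there in 40.7% and 5 or more in 10.7%, with 27 at most.

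**Figure D1:**
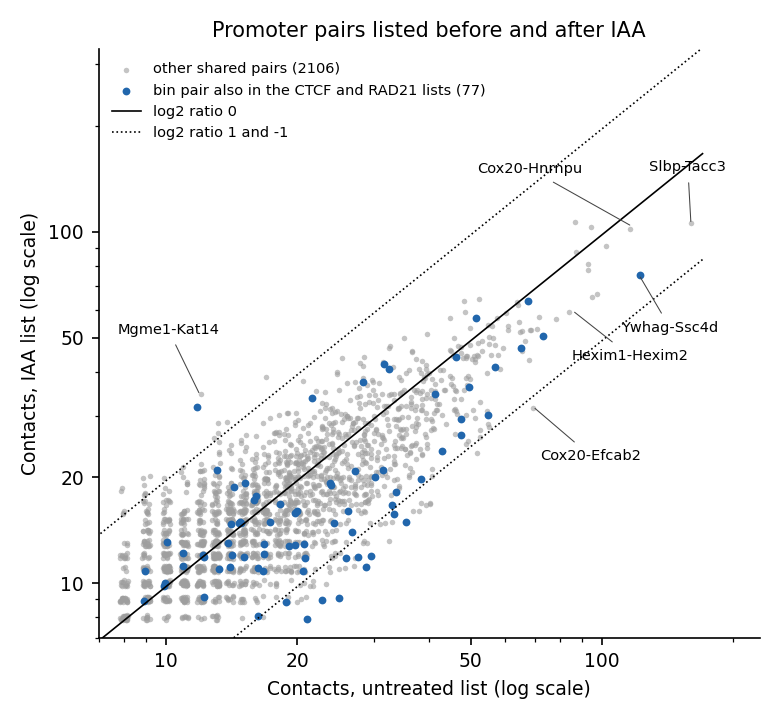
Contacts per bin pair without IAA (x axis) and after IAA (y axis), both on log scales, for the 2183 members in both lists, shifted slightly so that equal counts can be told apart. The solid line is a log2 ratio of 0, dotted lines are ratios of 1 and -1, and blue points are the 77 members on both CTCF and RAD21 interactions. Slbp with Tacc3 and Tmem129 has the most untreated contacts, 160.

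Listing of a promoter pair followed its distance and the genes between the bins. Of all 23852 pairs of untreated promoter bins that lay 6 to 298 kb apart and each anchored some listed interaction, 4271 were listed (17.9%). A bin could enter this count through the listed pair itself, so the shares listed depend in part on the listing. The share was 71.1% at 6 to 10 kb, 53.2% at 12 to 20 kb, 36.1% at 22 to 50 kb, 19.6% at 52 to 100 kb and 6.55% at 102 to 298 kb. At each span, pairs with no gene between were listed more often than pairs with genes between: 72.4% against 59.2% at the shortest spans, 53.9% against 25.2% at 22 to 50 kb and 28.6% against 5.91% at the longest. The 95% Wilson intervals at 22 to 50 kb were 51.2 to 56.6 and 23.4 to 27.1. Wilson intervals here cover counting error only, and pairs that share a bin are not independent.

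By strand, 3061 untreated members joined different genes with starts on a single strand in each bin. Of these 51.0% were tandem (1560), 30.3% divergent, with promoters facing away from each other (929), and 18.7% convergent, with promoters facing each other (572). A further 1080 members had starts on both strands in a bin, and 130 joined 2 start sites of 1 gene. Against the pairs possible at 22 to 50 kb, 27.4% (23.9 to 31.3) of convergent, 33.2% (30.8 to 35.7) of tandem, 38.1% (34.6 to 41.8) of divergent and 46.0% (42.4 to 49.7) of both-strand pairs were members. The convergent interval overlapped the tandem one there and lay below those of divergent and both-strand pairs. Convergent and tandem pairs also overlapped at longer spans, with 16.9% (14.5 to 19.6) and 17.2% (15.6 to 18.9) at 52 to 100 kb and 4.998% (4.24 to 5.89) and 5.51% (4.94 to 6.14) at 102 to 298 kb. At 6 to 20 kb the single-strand classes lay close together (68.4% to 73.9% at 6 to 10 kb and 51.6% to 52.3% at 12 to 20 kb). The median convergent member spanned 48 kb, the divergent 38 kb.

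Few members joined genes of 1 family by symbol: 126 of the untreated members (2.95%), 103 after IAA, and 65 in both. Of the 164 in either list, 42 joined histone genes and 44 joined zinc-finger genes named Zfp, and the other 78 joined genes of other families. Of possible pairs, the share listed was 72.5% for pairs of 1 family against 71.9% for other pairs of different genes at 6 to 10 kb, 48.6% against 53.2% at 12 to 20 kb and 28.2% (21.1 to 36.7) against 36.3% (34.6 to 37.9) at 22 to 50 kb. The shares were 18.7% (12.0 to 27.9) against 19.6% at 52 to 100 kb and 5.24% (2.95 to 9.13) against 6.57% at 102 to 298 kb. Family pairs were thus not listed more often than other pairs beyond counting error within any of these span classes. Over all spans together they were, with 23.6% (20.2 to 27.3) against 17.4% (16.9 to 17.9). The median span was 21 kb in untreated family members and 40 kb in all untreated members. The strongest histone pair was Hist2h4 with Hist2h2bb and Hist2h3b, with 64 contacts untreated and 62 after IAA. Hist1h1c, a linker histone gene, had 49 and 35 contacts with Hist1h2bb and 34 and 24 with Hist1h4a at 22 kb. Zfp874a and Zfp874b had 68 and 53 contacts where the model predicted 1.13. Hexim1 and Hexim2, inhibitors of the elongation kinase P-TEFb, had 85 and 60, and Mt2 and Mt1, named above, had the most of any family pair. Weaker family pairs were also found: Cdkn2a and Cdkn2b, which restrain the cell cycle, had 13 and 21, Tuba1b and Tuba1a 24 and 22, and Zmym1 and Zmym6 26 and 30.

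Member genes were 5764 of 21875 protein-coding genes over both lists, and the share differed widely between gene lists. Of 98 genes named Rpl or Rps with a digit, 73 were in members of either list. By symbol, this list takes in Rps6k kinase genes as well as ribosomal protein genes, and leaves out Rplp and Rpsa genes. Members also held 51 of 65 splicing genes, 53 of 82 histone genes, 63 of 98 respiratory chain genes and 34 of 50 proteasome genes. Of 39 Hox genes 6 were in members, of 53 keratin genes 1, and of 69 protocadherin genes, clustered or not, 0. Zinc-finger genes were between, at 126 of 394, and solute carriers at 99 of 371. Genes of the Rpl and Rps list anchored 184 members untreated and 163 after IAA. Only 4 of these members in either H3K27ac list joined 2 such genes.

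Of 47 genes chosen for pluripotency and the ground state, 16 were in members, with 21 members untreated, 24 after IAA and 15 in both. Pou5f1, which encodes Oct4, had 26 contacts untreated and 29 after IAA with the bin of Cchcr1 and Tcf19. Dppa5a had 25 and 29 with Ooep at 10 kb, and 30 and 32 with Gsta4 at 178 kb. Nodal, a signalling ligand, had 18 and 23 with Pald1 and 17 and 10 with Eif4ebp2. Dppa5a also had 15 and 10 contacts with Eef1a1, and 10 with Ddx43 in the untreated list only. An IAA interaction lay within 1 bin of the pair with Ddx43. Zfp42, which encodes Rex1, had 20 and 14 contacts with Triml2, and Trim28, a corepressor, had 48 and 29 with Zbtb45. Klf2 had 9 and 16 contacts with Ap1m1 and a further 19 with Rab8a after IAA only. Gdf3 with Dppa3 (14) and Gdf3 with Nanog (9) were listed at these bins after IAA only, and an untreated interaction lay within 1 bin of each. The promoter of Ctcf itself, in a bin with Agrp, had 14 contacts with Nutf2 over 224 kb in untreated cells only.

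Members joined into chains. Taking promoter bins as points and members as links, the untreated list formed 1248 separate components: 608 were isolated pairs, 249 had 3 bins, 327 had 4 to 9 and 64 had 10 or more. Components of 3 bins or more held 85.8% of members, and 33.4% lay in those of 10 or more. Single bins had few partners: 58.3% had 1, 224 had 5 or more, 21 had 10 or more and the most was 14. When a bin had 2 partners, these were themselves joined in 33.1% of cases, giving 915 triangles, and the largest set of bins that were all joined to each other had 6. After IAA there were 1176 components, 634 of them isolated pairs, and 540 triangles, with 81.5% of members in components of 3 bins or more. The largest component had 37 bins untreated and 46 after IAA. The IAA list is shorter and chains break when any link is missing from a list, so these counts carry no test of a change.

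The 6 chains with most genes lay in gene-dense segments. The first, chr11:69394001-70030000, joined 37 bins with 37 genes through 54 members, 31 of them listed again after IAA. It holds Trp53, the tumour suppressor p53, Polr2a, the large subunit of RNA polymerase II, and the translation factors Eif4a1 and Eif5a, and its strongest link was Gps2 with Eif5a at 62 contacts. A second chain, chr10:79668001-80322000, joined 34 bins and 31 genes through 69 members with 65 triangles, and 32 members were listed again. Its bins included Tmem259 with 14 partners, Gpx4, which reduces lipid peroxides, with 13, and Midn with 13. The densest chain was chr19:8712001-8968000, with 67 members among 25 bins in 256 kb, 32 of them listed again, and the bin of Bscl2 had 14 partners there. On chr7:44708001-45242000 there were 45 members (22 again). On chr7:127260001-128240000 there were 61 (33 again), led by Fbrs with Prr14 at 73 contacts. On chr7:126272001-127092000 there were 37 (14 again), led by the glycolytic gene Aldoa with Ppp4c at 67. The largest IAA chain, chr7:126396001-127968000, with 46 bins, 44 genes and 68 members, overlapped both of these last segments, which were separate chains in the untreated list. The 6 untreated chains had 37 to 69 members each, of which between 14 and 33 were listed again. Over all untreated members 51.1% were listed again. CTCF interactions took part in 1 to 5 members of each chain, where 10.1% of all untreated members lay on one.

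**Figure D2:**
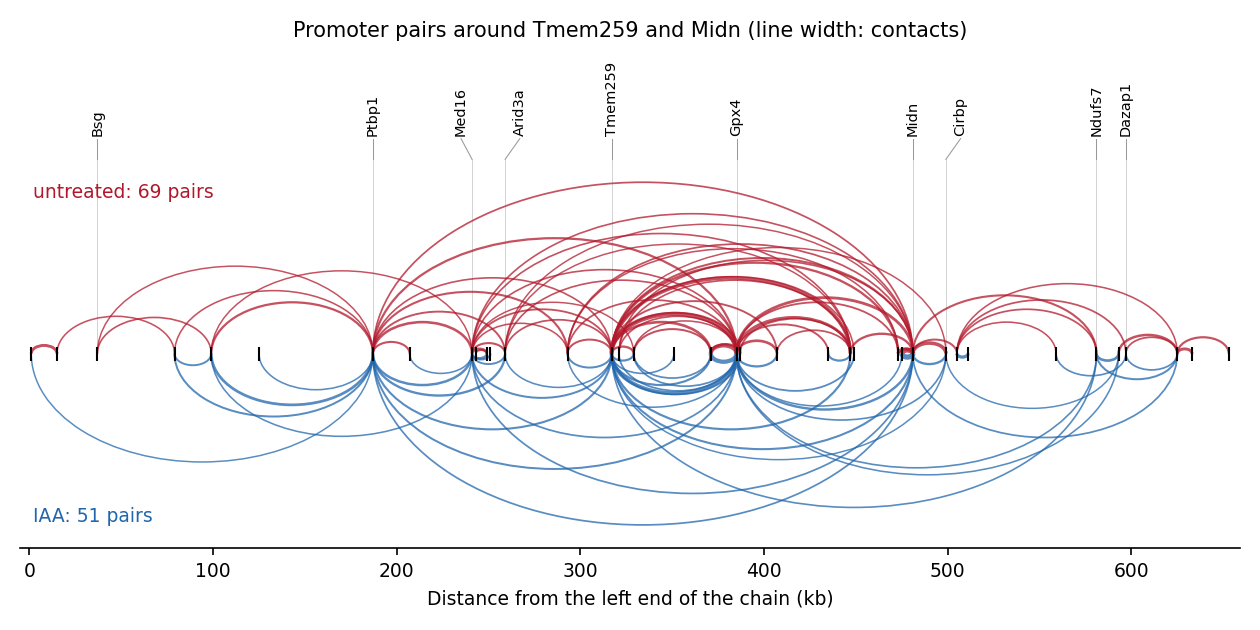
Members in the chain around Tmem259, Gpx4 and Midn, drawn as arcs between promoter bins by distance in kb from the chain's left end, above the line for untreated cells and below it for cells given IAA, with heavier arcs for more contacts. The upper part holds 69 members and the lower part 51, of which 32 are in both.

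Bins with many partners kept a varying number of them, where 51.1% of all untreated members were listed again. Tmem259 had 14 partners untreated (237 contacts, 12 to 182 kb away) and 13 after IAA, and 11 were the same. Gpx4 had 13 and 14, with 9 the same. Midn had 13 and 7, with 6 the same. Bscl2 had 14 and 9, with 8 the same. Qrich1 kept 10 of 12 untreated partners, while Eef1g kept 3 of 11, Pop7 3 of 10 and Cdipt 1 of 10. Tmem259 and Gpx4 thus differed by 1 partner between the lists, though not all partners were the same. Midn and Bscl2 had fewer in the IAA list, while Eif5a went from 9 to 12 and Bag6 from 7 to 10. Choosing bins for many untreated partners favours a lower second count, so no direction is read from these bins.

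After 12 h of IAA, 51.1% of untreated members (49.6 to 52.6; 2183 of 4271) were listed again at the same bin pair, where the share over all untreated H3K27ac interactions under 300 kb was 43.1%. The order turned when each anchor could move by 1 bin: 60.6% of members and 66.2% of all interactions were then found again. In the other direction 63.6% of IAA members stood in the untreated list, against 55.5% of all IAA interactions under 300 kb. An interaction missing from a list is one that did not pass the authors' q value there, and it may still have contacts.

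Being listed again followed the strength of the interaction. Of members with 6 to 9 untreated contacts 22.2% were listed again, of those with 10 to 14 40.4%, with 15 to 24 69.6%, with 25 to 49 89.5% and with 50 or more 100% (71 of 71). Interactions with a start in one bin gave 14%, 29.9%, 54.4%, 80.3% and 98.3%, and those with a start in neither 12.5%, 29.1%, 52.9%, 78.8% and 94.8%. By the authors' q value instead of contacts, members were above the others at the same bin pair only in the weaker classes. At q over 0.01 the shares were 26.8% of members and 19.0% and 18.8% of the others, and from 0.0001 to 0.01 they were 41.0%, 33.2% and 34.2%. From 1e-08 to 0.0001 they were 60%, 59% and 60.03%, and at 1e-08 or less 89.3%, 88.9% and 89.6%. With each anchor free to move by 1 bin the order in the weaker classes turned: 38.1% of members, 44.3% of interactions with a start in one bin and 50.4% of those with none were found again at q over 0.01, and 52.4%, 58.7% and 66.6% from 0.0001 to 0.01. By contacts the same held at 6 to 9 (28.4%, 32.2% and 35.9%) and at 10 to 14 (52.1%, 55.97% and 62.01%). By span the member share was 66.6% at 6 to 10 kb and 39.7% at 102 to 298 kb.

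**Figure D3:**
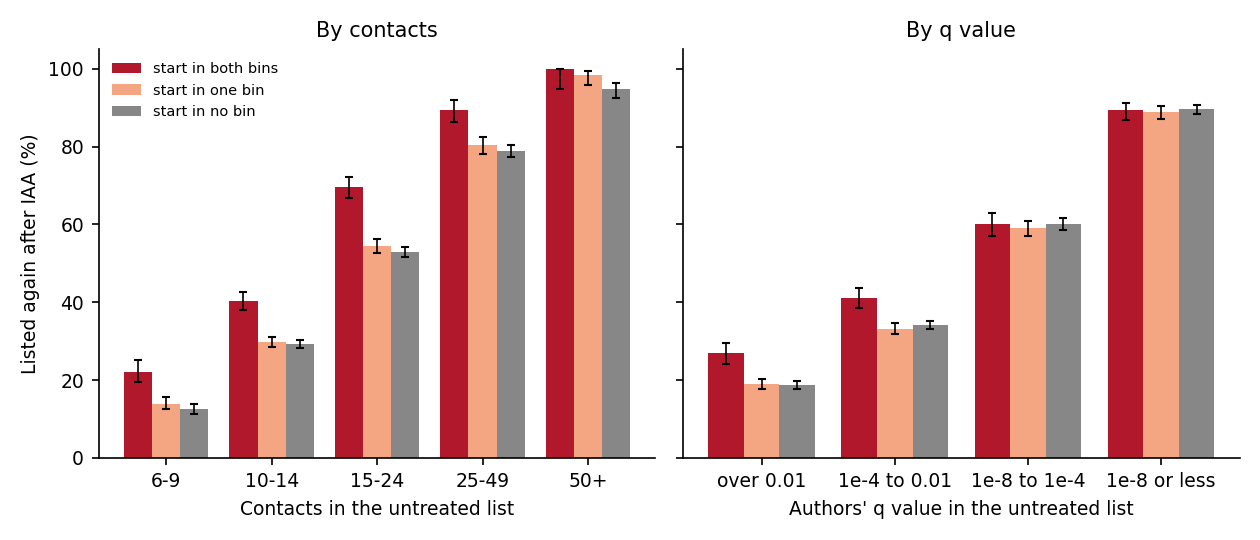
Share of untreated interactions listed again after IAA at the same bin pair (y axis, percent, with 95% Wilson intervals) by class of untreated contacts (left) and by class of the authors' q value (right), for members and for interactions with a start in one bin or in neither. By contacts, members go from 22.2% in the class of 6 to 9 contacts to 100% in the class of 50 or more and lie highest in each class, and at q of 1e-08 or less all 3 kinds lie between 88.9% and 89.6%.

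Divergent members were listed again in 55.5% of cases (52.3 to 58.7), tandem in 48.4% (45.9 to 50.9) and convergent in 45.5% (41.4 to 49.6). Members in isolated pairs were listed again in 47.0% of cases, those in chains of 3 to 9 bins in 52.6% and those in chains of 10 or more in 50.6%. Isolated pairs also had the lowest share in each class under 25 untreated contacts. At 25 or more contacts the shares were 96.4% (87.9 to 99.0), 92.1% (88.5 to 94.7) and 87.3% (81.9 to 91.3) in this order, with overlapping intervals. Among the gene lists, splicing genes had 63.7% (54.5 to 71.996) of 113 members listed again and solute carriers 41.8% (34.4 to 49.6) of 158, where all members had 51.1%. The share was 59.3% (46.6 to 70.9) of 59 for histones, 57.6% (50.4 to 64.5) of 184 for Rpl and Rps genes and 41.1% (29.2 to 54.1) of 56 for proteasome genes. For the 21 members of pluripotency genes it was 71.4% (50.04 to 86.2). The intervals of these last 4 lists contained the share of all members.

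Of 545 members with 25 or more untreated contacts, 42 had no IAA member within 1 bin, and 21 (3.85%, 2.53 to 5.82) had no IAA interaction of any kind there. The latter share was 7.59% (6.38 to 8.995) of 1582 such interactions with a start in one bin and 6.56% (5.76 to 7.48) of 3199 with a start in neither. The strongest members with no IAA member within 1 bin were Apoc1 with Apoe (45 contacts), apolipoprotein genes, Slc35b2 with the chaperone gene Hsp90ab1 (41), Dpagt1 with the histone variant gene H2afx (38) and Mpdu1 with Eif4a1 (36). For these 4 an H3K27ac interaction that was not a member remained within 1 bin. Rrp36 with Klhdc3 and Mea1, and Hspb6 and Proser3 with Lin37, had 33 contacts each and no interaction within 1 bin after IAA. All 6 spanned 6 to 10 kb and none lay on a CTCF or RAD21 interaction, where 15.5% of all untreated members at this span did. In the other direction, 8 of 403 IAA members with 25 or more contacts had no untreated member within 1 bin. The matching share of other IAA interactions was not computed. The strongest were Dmtn with Fgf17 (31 contacts), 1600002K03Rik with Efna2 (29) and Dhx37 with Bri3bp (28), the last on a CTCF interaction.

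For the 2183 members in both lists, contacts were 43634 untreated and 40082 after IAA. Log2 ratios of contacts after IAA over untreated are given relative to all 15551 shared H3K27ac interactions, which had 347765 and 340816 contacts, so that an equal count gives 0.03. The median member ratio was -0.05 (95% interval of the median -0.08 to -0.02), and the median over all shared interactions was 0.03. Ratios were below 0 in 52.5% of members and in 46.2% of all shared interactions, and the member median was the lower on 15 of 20 chromosomes and tied with the others on 4. The median log2 change of coverage at the anchors was 0.11 for members and 0.18 over all shared interactions. Whether coverage accounts for the lower member ratios was not tested. Scaled by anchor coverage, the medians were 0.021 and 0.016, and the member median was no longer the lower. Scaling by the authors' model totals instead lowered every ratio by 0.25 and gave medians of -0.30 and -0.22.

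No member passed an exact two-sided binomial test of its 2 counts at a Benjamini-Hochberg adjusted p under 0.05 over all shared interactions: 0 of 2183, where 21 of 15551 did (0.135%; 0.0965% higher and 0.0386% lower after IAA). At an unadjusted p under 0.05 there were 12 members higher and 68 lower after IAA, against 1.98% and 2.43% of all shared interactions, or 4.41% in either direction. Scaled by anchor coverage these counts were 16 and 38, and scaled by model totals they were 3 and 193. Under the model totals 5 members passed, all lower after IAA: Slbp with Tacc3 and Tmem129, Cox20 with Efcab2, Ywhag with Ssc4d, Gid8 with Slc17a9 (51 and 23 contacts) and Nhp2 with 0610009B22Rik, while 54 of all shared interactions passed as lower and 6 as higher. This test sets one pooled list against the other, with no spread between libraries. Ratios of at least 1.5-fold upward were found in 143 of 2183 members, where 8.55% of all 15551 shared interactions had one, and downward in 245 members, where 8.04% of all had one. The SD of the member ratios was 0.43 and counting error alone would give 0.52, but weak pairs had to be listed in both conditions, which trims their spread. Among members with 60 or more contacts over both lists the SD was 0.37, against 0.33 from counting. Ratios also followed the untreated count used to sort them: the median was 0.32 in members with 6 to 9 untreated contacts and -0.30 in those with 50 or more, and 0.32 and -0.14 in interactions with a start in neither bin.

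The member with the smallest adjusted p was Cox20 with Efcab2, 88 kb apart on a CTCF interaction, with 69 contacts untreated and 32 after IAA, a log2 ratio of -1.08 (95% interval -1.68 to -0.47, adjusted p = 0.137 in the exact binomial test). Slbp with Tacc3 and Tmem129 had -0.59 (-0.95 to -0.24) and Ywhag with Ssc4d -0.64 (-1.06 to -0.23), whose counts are given above. The lowest ratios among the 708 shared members with 40 or more contacts over both lists were those of Taf3 with Atp5c1 and Kin (29 and 11), Dtwd2 with Dmxl1 (29 and 11), Mertk with Tmem87b (30 and 12), the heterochromatin protein gene Cbx5 with Hnrnpa1 (32 and 13) and Nhp2 with 0610009B22Rik (41 and 17), from -1.37 to -1.24. The highest ran from 1.08 to 1.53 and belonged to Mgme1 and Snx5 with Kat14 and Pet117 (12 and 34), Zfp74 with Zfp568 (12 and 32), Mblac2 and Polr3g with Cetn3 (17 and 39), 2510002D24Rik with Hira and Mrpl40 (13 and 29) and Hist1h3e with Hist1h2ae and Hist1h2bg (13 and 27). None of these passed the adjusted test.

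The 5 longest members with 20 or more contacts spanned 250 to 294 kb. Phf8 and Huwe1, 282 kb apart with no coding start between them, had 23 contacts untreated and 24 after IAA, where 1.23 were predicted. Riok2 and Lnpep had 38 and 35 at 250 kb, and the chaperonin gene Cct4 and the nuclear export receptor gene Xpo1 had 23 and 18 at 266 kb. Ddx20 and Wdr77, the only one of the 5 on a CTCF interaction, had 26 and 15 at 272 kb. Psmd1 and the nucleolin gene Ncl, 294 kb apart, had 25 contacts and were not listed after IAA, although an interaction lay within 1 bin.

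Support from CTCF and RAD21 was taken as an interaction of the CTCF or RAD21 list, both at 1 kb bins from untreated cells, on the same pair of 2 kb bins. A CTCF interaction lay on 430 untreated members, 10.1% (9.20 to 11.01), where it lay on 6.21% of all untreated H3K27ac interactions under 300 kb. With each anchor free by 1 bin these shares were 14.8% and 13.1%. A RAD21 interaction lay on 255, 5.97% against 5.69%, and both lay on 146, 3.42% against 3.31%. Thus 539 members, or 12.6%, were on either kind. CTCF anchors of any interaction lay in both bins of 29.7% of members, against 15.9% with a start in one bin and 7.89% with a start in neither. They lay in neither bin of 28.4% of members, against 39.4% with a start in one bin and 63.4% with a start in neither. Divergent members were on a CTCF interaction in 12.4% of cases and a RAD21 interaction in 10.4%, tandem members in 9.04% and 4.74% and convergent members in 9.62% and 4.02%.

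The CTCF share followed span differently in members. It was 12.8% of members at 6 to 10 kb, 12.1% at 12 to 20 kb, 9.82% at 22 to 50 kb, 8.31% at 52 to 100 kb and 9% at 102 to 298 kb. Among interactions with a start in neither bin it went the other way, from 1.85% at 6 to 10 kb to 12.1% at 102 to 298 kb, and with a start in one bin from 4.51% to 13.3%. Members thus had the highest CTCF share at short spans and the lowest at the longest spans. A CTCF anchor lay between the bins of 62.5% of members, from 23.8% at the shortest to 91.6% at the longest spans. A longer span has more room for an anchor. This share was not computed for other H3K27ac interactions, so it is not read as a trait of members.

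**Figure D4:**
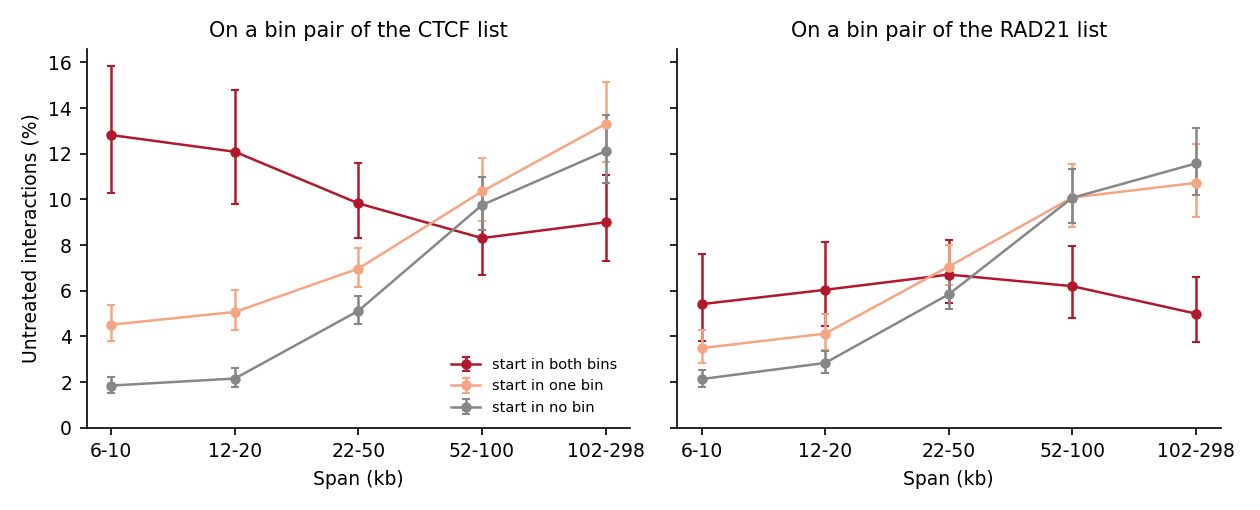
Share of untreated H3K27ac interactions on a CTCF or a RAD21 interaction (y axes, percent, with 95% Wilson intervals) by span class in kb (x axis), for members and for interactions with a start in one bin or in neither. The CTCF share of members is 12.8% at 6 to 10 kb and 9% at 102 to 298 kb, while that of interactions with no start goes from 1.85% to 12.1%.

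Of members on a CTCF interaction 52.3% (47.6 to 57.0; 225 of 430) were listed again after IAA, and of other members 51.0% (49.4 to 52.6). By untreated contacts these shares were 19.0% on and 22.4% off at 6 to 9, 30.4% (23.7 to 37.9) and 41.4% (39.0 to 43.8) at 10 to 14, 70.4% and 69.5% at 15 to 24, and 94.6% and 90.2% at 25 or more. Members with 10 to 14 contacts were thus listed again less often on a CTCF interaction. Over all contact classes together, the shares on and off a CTCF interaction were 33.8% and 41.8% with a start in one bin. With a start in neither they were 23.5% and 43.5%. At 52 to 298 kb, where members on a CTCF interaction are fewer, they were 36.5% (29.4 to 44.3; 57 of 156) against 42.6% (40.3 to 45.0) in members, 19.3% (15.6 to 23.5) against 34.4% with a start in one bin and 9.17% (6.88 to 12.1) against 33.5% with a start in neither. With anchors free by 1 bin at this span they were 42.3% against 49.1% in members and 16.2% against 57.2% with a start in neither. The shares on and off a CTCF interaction thus lay closer together in members than where neither bin held a start, both at the same bin pair and with anchors free, and no test across these classes was run. At 6 to 50 kb the member shares were 61.3% on and 57.2% off a CTCF interaction. At q over 0.0001 the member shares were 31.9% on and 35.3% off a CTCF interaction. Members at q of 0.0001 or less were listed again in 72.4% on a CTCF interaction and 72.8% off one, and interactions with a start in neither bin in 45.7% and 73.5%.

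Members on a RAD21 interaction were listed again in 62.7% of cases (56.7 to 68.4; 160 of 255), and the others in 50.4%. Median untreated contacts were 16 and 13. By untreated contacts the shares were 17.2% on and 22.4% off at 6 to 9, 38.2% and 40.5% at 10 to 14, 70.1% and 69.5% at 15 to 24, and 98.6% and 89.6% at 25 or more. Only in the strongest class were members on a RAD21 interaction the more often listed again beyond counting error. At 52 to 298 kb the shares were 50.5% (40.9 to 60.05) and 41.6%, where interactions with a start in neither bin gave 13.3% and 33.0%. Of the members on both kinds 52.7% were listed again, of such interactions with a start in one bin 28.6% and in neither 17.6%. RAD21 interactions of untreated cells were used, and cohesin after IAA was not measured in the lists.

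**Figure D5:**
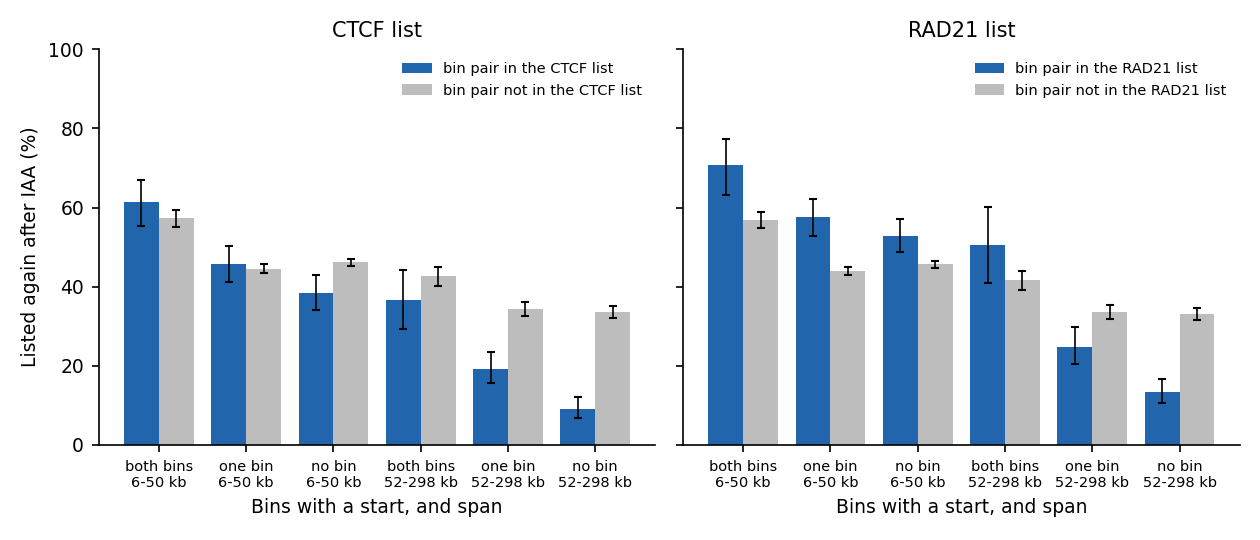
Share of untreated H3K27ac interactions listed again after IAA (y axis, percent, with 95% Wilson intervals) on and off an interaction of the CTCF list (left) and the RAD21 list (right), at 6 to 50 and 52 to 298 kb, for members and for interactions with a start in one bin or in neither. At 52 to 298 kb members give 36.5% on and 42.6% off a CTCF interaction, and interactions with no start 9.17% and 33.5%.

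The members in both lists had lower ratios on these interactions. The median log2 ratio was -0.16 (-0.26 to -0.05, n = 225) on a CTCF interaction and -0.04 off one, and -0.24 (-0.31 to -0.12, n = 160) on a RAD21 interaction and -0.04 off one. On both it was -0.33 (-0.53 to -0.19, n = 77), and 68.8% of these ratios were below 0. Interactions without 2 promoters had like medians, -0.15 with a start in one bin and -0.13 with a start in neither on a CTCF interaction, so this offset was not particular to members. It was not compared within classes of untreated contacts, which the ratios follow. Among the 6 pairs of different genes with most untreated contacts on both kinds, Ywhag and Ssc4d led, then Surf6 with Med22 and Rpl7a (74 and 50), Thap11 with Nutf2 (67 and 64), the chloride channel gene Clcn3 with Nek1 (65 and 46), Ankrd13c with Lrrc40 and Srsf11 at 90 kb (57 and 41) and Drg1 with Patz1 (54 and 30). Their log2 ratios lay between -0.04 (Thap11 with Nutf2) and -0.82 (Drg1 with Patz1). Like the 8 strongest pairs they were taken for their untreated counts: of all members with 50 or more untreated contacts, 88.7% had a ratio below 0, so no direction is read from them.

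The CTCF core was found in 34.7% of the 733 promoter bins of members on a CTCF interaction, in 45.8% of bins for interactions with a start in one bin and in 56.0% with a start in neither. Member bins with no CTCF anchor at either end held it in 10.4%. Both bins held it in 12.3% of the members on a CTCF interaction (53 of 430), against 19.1% and 33.3%. Where each bin held it on 1 strand only, the cores faced each other in 13 of 47 members (27.7%, 16.9 to 41.8), in 52.5% of 141 interactions with a start in one bin and in 69.4% of 268 with a start in neither. Members on CTCF interactions thus held fewer cores, and fewer facing cores, than the interactions between non-promoter bins.

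Of the 13 members with facing cores, 5 were listed again (38.5%, 17.7 to 64.5). Of the 156 members on a CTCF interaction with no core at either end, 96 were (61.5%, 53.7 to 68.8), and of the other 261, with a core at one end or both, 124 were (47.5%, 41.5 to 53.6). Their median spans were 92, 26 and 36 kb in this order. Among the pairs whose windows are shown above, Mrps14 with Cacybp had 49 contacts untreated and 36 after IAA, Cep85 with Pdik1l 23 and 9, and H13 with Bcl2l1 21 and 8. Of those whose cores do not face each other, Eif2s3x with Klhl15 had 24 and 19, N4bp2l2 with Pds5b, a cohesin regulator, 22 and 33, and 4833439L19Rik with Faf2 15 and no listed interaction after IAA. These pairs too were taken for their untreated counts. None of those in both lists passed the adjusted test, and 4833439L19Rik with Faf2 could not be tested. Of the 6 strongest pairs on both kinds of interaction, named above, only the bin of Patz1 held the core, with 2 matches.

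Promoter letters set member genes apart from promoters with no H3K27ac anchor, and less from other anchors. RefSeq promoters of 300 bases (250 before and 50 after the start) numbered 19023, of which 5289 lay in member bins, 1715 in bins that anchored other H3K27ac interactions only and 12019 in neither. The GC box was in 69.3%, 67.2% and 37.1% of these (48.8% of all), and the TATA box TATAAA in 5.73%, 5.95% and 15.7% (12.0% of all). The ETS motif was in 22.6%, 16.2% and 7.10% (12.2% of all), the NRF1 motif GCATGCGC in 7.01%, 4.49% and 2.25% (3.77% of all), the YY1 motif AANATGGCG in 6.98%, 4.96% and 1.57% (3.38% of all) and the ZFP143 motif ACTACAANT in 3.67%, 2.27% and 1.37% (2.09% of all). CCAAT was in 39.7%, 35.3% and 37.4% (37.9% of all), the CRE in 3.67%, 3.21% and 1.71% (2.39% of all) and the E-box in 11.3%, 10.7% and 6.39% (8.15% of all). The GC content had medians of 61.7%, 62.7% and 53.3%, so the letters were compared between promoters of unequal composition. In the 275 promoters of member bins with 5 or more partners, the YY1 letters were in 12.7% (9.30 to 17.2) and CCAAT in 33.5% (28.1 to 39.2), intervals that lay above and below the shares in all member promoters. The intervals for the E-box, NRF1, the CRE and ZFP143 contained those shares. A match is a string of letters, not a bound site, and no match says only that the letters are not in the window.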

How the data were processed

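Libraries were made by MNase digestion, in situ ligation and immunoprecipitation, per the labels' protocols. The submitters' processing notes name mm10, Trim Galore, BWA, MACS2 and deepTools, and the names of the deposited lists carry FitHiC, an interaction caller, whose version and settings are not given in the sources used here. Each of the 4 deposited lists holds, per the file headers, 1 row per bin pair with the contact count, the coverage count of each bin, a predicted contact signal, a contact probability (a fraction of the authors' model), a p-value, a q-value and a peak flag per bin. Values in the deposited lists are pooled over 2 or 3 libraries, bins are 2 kb (H3K27ac) or 1 kb (CTCF, RAD21), and the largest deposited q in the untreated H3K27ac list was 0.0500. The contact total that the predicted contacts and contact probabilities imply was 12551236 untreated and 14629323 after IAA.

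Members were found with the GENCODE M21 protein-coding starts. Of the interactions between promoter bins, 174 untreated and 139 IAA interactions at 300 kb or more were left out. Shares have 95% Wilson intervals, medians a 95% interval from order statistics, and contact ratios an exact two-sided binomial test (scipy 1.17.1) against the split of all contacts in shared interactions, with Benjamini-Hochberg adjustment over all 15551. The test was checked on simulated data, with results that are not reported here. Chains are connected components (networkx 3.6.1), and python 3.11.15, pandas 2.3.3, numpy 2.4.6 and matplotlib 3.10.9 were used. Of 5764 member genes, 4461 had a RefSeq promoter in a member bin. Members, gene lists and named pairs were chosen with earlier results of these data known. Named pairs are those with most contacts, the largest ratios among members with 40 or more contacts, the chains with most genes, the strongest on CTCF and RAD21 interactions, the longest, the strongest in 1 list only, and the strongest of each family and gene list, without pairs within 2 bins of one already taken. Values of 2 named genes are not reported here.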

Additional observations from a re-analysis of the deposited data

How the results depend on the processing

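Of 118 values recomputed under 11 other settings, 97 kept their direction and stayed within their counting error or, for counts, within 1.5 times, and 21 moved. Of 715 recomputed ratios of 82 named pairs, 711 stayed on the same side of the adjusted threshold and 4 passed it under the model totals (Slbp with Tacc3 and Tmem129, Cox20 with Efcab2, Ywhag with Ssc4d, Nhp2 with 0610009B22Rik). The sign of a ratio differed in 25, none of them called, 18 under the model totals. With only interactions at q of 0.01 or less, the CTCF share of members was 9.02% (all interactions 5.74%, against 10.1% and 6.21% with every interaction). With 10 or more contacts, 55.1% of untreated members were listed again (all interactions 47.0%), 67.2% of IAA members stood in the untreated list, and 55.1% of members off CTCF interactions were listed again. Without spans of 10 kb or less these were 48.8%, 61.0% and 48.9%. With both lists cut to equal length they were 56.2% (all interactions 50.1%), 58.0% and 56.2%. With anchors free by 1 bin, 60.6% were listed again (all interactions 66.2%), 71.2% of IAA members stood in the untreated list, the CTCF share was 14.8% (all interactions 13.1%, so the members' excess was smaller) and the RAD21 share 8.52%, and 61.1% on and 60.5% off CTCF interactions were listed again. Scaled by the authors' model totals, 5 members passed as lower instead of 0, and the median ratios were -0.30 for all shared members, -0.41 on and -0.30 off CTCF interactions. Scaled by anchor coverage the median ratio of shared members was 0.021. Starts of the comprehensive annotation, an alternative chosen after seeing the data, gave 4746 and 3789 members. No paired analysis was possible because each condition is 1 list pooled over its libraries, and for the same reason no library could be left out. Families by protein identity were not run. Weak members were the least often found in both lists: of those with 6 to 9 contacts 22.2% were listed again, and whether depth accounts for this was not tested.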
